A study of Mus musculus with 6 samples.

Results

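The colony-stimulating factors are secreted proteins that direct the survival, proliferation and differentiation of macrophages, granulocytes and microglia. The transcripts described here are those of 4 ligands, Csf1, Il34, Csf2 and Csf3, and of 4 receptor genes, Csf1r, Csf2ra, Csf2rb and Csf3r. They were chosen by name: every spot other than a control spot was kept if the RefSeq accession given for it belonged to 1 of these genes. This gave 8 genes, measured by 14 probes, of 23462 genes that could be matched on the arrays.

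BV2 is an immortalized line of mouse microglial cells. Total RNA of 6 BV2 samples was hybridized to 1-colour Agilent arrays, 3 without PGC-1α overexpression (the control group) and 3 with it (the overexpression group). PGC-1α, encoded by Ppargc1a, is a transcriptional coactivator known for promoting mitochondrial biogenesis. All 6 samples had been treated with LPS, a bacterial cell wall component that activates microglia through Toll-like receptor 4, at 500 ng/ml for 6 h. Lentiviral vectors carrying PGC-1α or a negative control, with selection in puromycin at 2 µg/ml, belong to the culture methods, whereas the sample labels name no vector for the control group. There was no array without LPS, so the response of the colony-stimulating factors to LPS itself cannot be given. Nothing in the labels says whether the 3 samples of a group came from separate cultures. The p-values therefore set each group difference against a spread within groups that may be only technical. In RNA of whole cultures, a smaller number of cells with a transcript and less of it per cell cannot be told apart.

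CSF-1 and IL-34 are both ligands of the receptor tyrosine kinase CSF1R, on whose signal microglia depend for survival. GM-CSF, encoded by Csf2, binds a specific alpha chain (Csf2ra) that pairs with the common beta chain (Csf2rb), a subunit shared with the receptors of IL-3 and IL-5. G-CSF, encoded by Csf3, acts through a homodimer of CSF3R and is best known as the factor that mobilizes neutrophils. Several of these ligand genes are induced by inflammatory stimuli in macrophages and in stromal cells.

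Among the ligands, the Csf1 probe with the strongest signal was 3.34-fold lower in the overexpression group (log2 fold change -1.74, SE 0.145), and the Csf3 probe was 2.84-fold higher (log2 fold change 1.51, SE 0.199). Among the receptors, all 3 probes of Csf2rb were lower, with log2 fold changes of -1.03 to -1.06. These 5 probes passed the test under both ways of scaling the arrays that are described here, each with 3 arrays per group. Both probes of Csf1r and the probe of Csf3r were higher when each array was scaled to its 75th percentile, and only 1 of the 2 Csf1r probes passed after quantile normalization. No probe of Csf2, Csf2ra or Il34 passed under either scaling when p-values were adjusted over all probes.

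The promoters of Csf1 and Csf2, the only ligands with a window, are shown because both genes are activated by inflammatory transcription factors. Whether any motif has a part in the change of a member was not tested. The 250 bases before the transcription start are given 5′ to 3′ on the strand of the gene, from the RefSeq promoter table of the mouse assembly GRCm38.p6. Capitals mark matches, on either strand, to 1 of 5 short motifs: GGGANNNNCC for NF-kappaB, TGANTCA for AP-1, GAGGAA for PU.1, AAGGTCA for the orphan receptor ERR alpha, and TATAAA for the TATA box.

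Csf1, chr3:107760470-107760719, minus strand: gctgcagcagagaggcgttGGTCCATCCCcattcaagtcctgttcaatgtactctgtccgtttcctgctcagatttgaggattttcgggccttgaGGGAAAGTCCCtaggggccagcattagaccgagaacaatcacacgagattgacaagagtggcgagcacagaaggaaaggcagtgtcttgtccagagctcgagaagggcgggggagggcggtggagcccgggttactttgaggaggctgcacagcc

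Csf2, chr11:54249900-54250149, minus strand: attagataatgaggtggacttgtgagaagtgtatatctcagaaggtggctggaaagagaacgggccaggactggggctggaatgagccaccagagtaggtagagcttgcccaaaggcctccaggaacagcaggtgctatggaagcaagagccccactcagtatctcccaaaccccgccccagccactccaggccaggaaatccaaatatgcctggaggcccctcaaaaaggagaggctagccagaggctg

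The Csf1 window held the NF-kappaB motif in capitals, once at 231 to 222 bases before the start on the opposite strand and once as overlapping matches on both strands between 155 and 145 bases before it. Of all 32851 promoters of the table, 17.6% held this motif in a window of the same length. None of the 5 motifs was found in the Csf2 window, which says only that these letters were not in it. The Csf3r promoter held an NF-kappaB match at 129 to 120 bases before the start and a PU.1 match at 86 to 81 bases. The Csf2ra promoter held PU.1 matches at 14 to 9 and at 8 to 3 bases, and 23.3% of all promoters held at least 1. PU.1 is the transcription factor that specifies the myeloid lineage. The AP-1, ERR alpha and TATA motifs, held by 6.75%, 4.08% and 12.4% of all promoters, had no match in these 4 windows. Only these 4 of the 8 members had a window, and Csf3, Il34, Csf1r and Csf2rb were not searched.

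The deposited values are intensities of the spots, with background subtracted but not normalized between arrays. The 75th percentile of the intensity lay between 1617 and 1893 in the control and between 856 and 1268 in the overexpression group. Levels are therefore given as log2 intensity minus the log2 75th percentile of the same array. With this scaling the median log2 fold change (overexpression minus control) of all 38919 tested probes was 0.25, and with quantile normalization it was 0.05. The members are read against these medians, since a log2 fold change near 0.25 under the first scaling is that of the median probe. Quantile normalization gives all arrays the same distribution of values. Between 41122 and 45165 of the 59305 spots were well above background per array, and no spot was saturated. Replicates 1 and 2 of each group lay on 1 slide and replicate 3 of each group on another, so each difference was also taken within slides. The 2 probes of Ppargc1a gave intensities of 9 to 22, neither met the signal filter, and without the filter their log2 fold changes were 0.26 (limma, adjusted p = 0.49) and 1.14 (adjusted p = 0.069). The groups of the second probe did not overlap, and it passed in 3 of the 5 settings that could test it (slide 1 alone, without control replicate 3 and without overexpression replicate 3, lowest adjusted p = 0.023). At intensities this low the probes gave no firm check of the overexpression label. Whether a probe detects a vector transcript could not be read from the files.

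All 14 member probes were well above background on all 6 arrays and entered the test. In limma with Benjamini-Hochberg adjustment over all tested probes, 8 of the 14 reached the threshold of 0.05 (4 higher, 4 lower), and they came from 5 of the 8 genes. This share of 57.1% was close to the 53.8% of all tested probes that passed (35.4% higher, 18.4% lower). After quantile normalization 6 of the 14 passed (42.9%), 2 higher and 4 lower, against 43.5% of all tested probes (22.9% higher, 20.6% lower). The same 6 probes passed in the same direction under both scalings, as did 40.7% of all probes. The count therefore says nothing particular about these genes, and the values of each follow by role. The groups did not overlap in 11 of the 14 probes, against 63.6% of all probes with a value on every array, and in 9 against 57.3% after quantile normalization. A passing log2 fold change of at least 1 in size was found in 5 of the 14 probes under each scaling (Csf1 probe 1, Csf3 and the 3 of Csf2rb), against 16.5% and 14.8% of all probes. The 3 Csf2rb probes measure the same gene and are not independent, so an excess of large changes cannot be read from this.

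**Figure D1:**
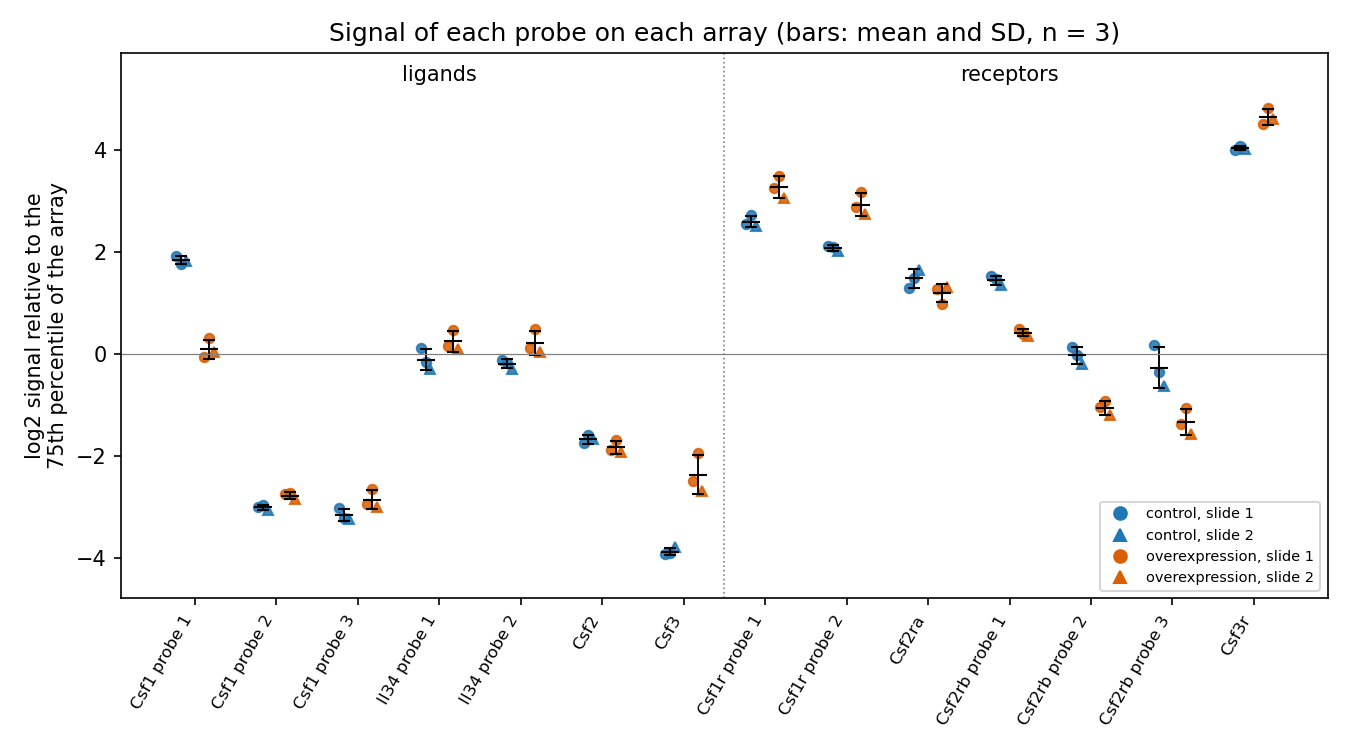
Log2 signal of each of the 14 probes on each array, relative to the 75th percentile of that array. Blue points are control and orange points overexpression samples, circles slide 1 and triangles slide 2, and black bars the mean and SD of 3 arrays. Csf1 probe 1 and the 3 Csf2rb probes lie lower, and Csf3 higher, in every overexpression sample. Heights of different probes cannot be compared with each other.

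Csf1 encodes the main growth factor of macrophages and microglia. Its probe 1 (A_51_P195506, designed for NM_007778) had intensities of 6108, 5505 and 6686 in the control and of 1107, 1053 and 1305 in the overexpression group. Every overexpression value lay far below every control value before any scaling, but the 75th percentile of the overexpression arrays was also lower. Unscaled Csf2 intensities were also lower without overlap (265 to 335 against 478 to 590), so the scaled levels are the ones to read. On the scaled log2 axis the level was 1.83 ± 0.0801 (SD, n = 3) in the control and 0.0923 ± 0.187 (n = 3) in the overexpression group. The log2 fold change of -1.74 (95% interval -2.07 to -1.41; limma, adjusted p = 1.7e-04) was lower than that of all but 2.58% of the tested probes. After quantile normalization it was -1.86 (interval -2.17 to -1.55, adjusted p = 1.7e-04). On slide 1, with 2 arrays per group, the difference was -1.72, and on slide 2, with 1 array per group, -1.78. It passed in all 21 alternative settings, with log2 fold changes of -1.87 to -1.66.

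The other 2 Csf1 probes carry a different transcript accession (NM_001113530) and were dim. Probe 2 (A_55_P2169669) had intensities of 200, 209 and 227 in the control and of 171, 128 and 175 in the overexpression group. Its scaled levels were -3.01, -2.96 and -3.06 in the control and -2.75, -2.74 and -2.86 in the overexpression group, a log2 fold change of 0.23 (interval -0.06 to 0.51; limma, adjusted p = 0.15). Probe 3 (A_55_P2017914) gave a log2 fold change of 0.30 (interval -0.04 to 0.65, adjusted p = 0.12). Neither passed, and both values lay close to the median of all probes, so the probes of Csf1 did not move as 1. Which exons the 3 probes match is not given in the files.

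The disagreement between the Csf1 probes was also taken within arrays, where a constant scaling factor cancels. Only the change of such a difference between the groups can be read, not its size. Probe 1 minus probe 2 was 4.93, 4.72 and 4.88 log2 units in the control and 2.69, 3.04 and 2.90 in the overexpression group. Probe 1 minus probe 3 was 4.95, 4.98 and 5.07 against 2.88, 2.95 and 3.04. Neither pair of groups overlapped. Probe 2 minus probe 3 differed by -0.07 between the groups, with overlapping values. Of 13 such differences computed between member probes, all those without overlap have an exact two-sided permutation p of 0.1, which is the smallest that 3 against 3 arrays allow, and they cannot pass 0.05 with or without adjustment.

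Il34 encodes the other CSF1R ligand, produced in the brain mainly by neurons. Its probe 2 (A_66_P124871) had scaled levels of -0.12, -0.18 and -0.29 in the control and of 0.11, 0.49 and 0.04 in the overexpression group. Every scaled overexpression value was higher, and the log2 fold change was 0.41 (interval 0.05 to 0.78; limma, adjusted p = 0.056), short of the threshold. Before scaling, every overexpression intensity was lower, at 1249, 1200 and 1307 against 1484, 1437 and 1546. Relative to the median of all probes the change was 0.17, and 59.7% of all tested probes had a lower value. Probe 1 (A_51_P268234) gave a log2 fold change of 0.36 (interval -0.03 to 0.75; limma, adjusted p = 0.1), or 0.11 relative to that median, with overlapping groups. The call on Il34 probe 2 depended on the setting: it passed in 8 of 21 alternatives, among them the fit with slide as a block (adjusted p = 0.036). With overexpression replicate 3 left out it was 0.50 (adjusted p = 0.049). The difference between Il34 probe 1 and Csf1 probe 1, taken within each array, was 2.10 log2 units larger in the overexpression group, without overlap (exact permutation p = 0.1).

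Csf2 encodes GM-CSF, which drives inflammatory activation of macrophages. Its single probe (A_51_P171075) had intensities of 478, 543 and 590 in the control and of 310, 265 and 335 in the overexpression group. After scaling, the levels were -1.76, -1.58 and -1.68 against -1.90, -1.69 and -1.92, and the groups overlapped. The log2 fold change was -0.16 (interval -0.47 to 0.15; limma, adjusted p = 0.33), and -0.15 (interval -0.44 to 0.13) after quantile normalization. The intervals leave room for a decrease of 0.47 on the log2 scale or an increase of 0.15 under the first scaling.

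Csf3 encodes G-CSF. Its single probe (A_51_P317176) had intensities of 106, 108 and 136 in the control and of 206, 222 and 197 in the overexpression group. The signal was dim on all 6 arrays, yet every overexpression value exceeded every control value even before scaling. The scaled level rose from -3.88 ± 0.0753 (SD, n = 3) to -2.37 ± 0.384 (n = 3), a log2 fold change of 1.51 (interval 1.05 to 1.97; limma, adjusted p = 0.0011). Of all tested probes, 98.5% had a lower log2 fold change. After quantile normalization it was 1.43 (interval 0.94 to 1.92, adjusted p = 0.0023), and within slides 1.70 and 1.11. It passed in all 21 alternatives, which gave 0.99 to 1.70. Relative to Csf1 probe 1 on the same array, Csf3 stood at -5.85, -5.67 and -5.61 log2 units in the control and at -2.43, -2.24 and -2.73 in the overexpression group, 3.25 units higher (exact permutation p = 0.1). Relative to Csf2 it was 1.67 units higher, also without overlap. Csf1 probe 1 and Csf3 thus moved in opposite directions.

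**Figure D2:**
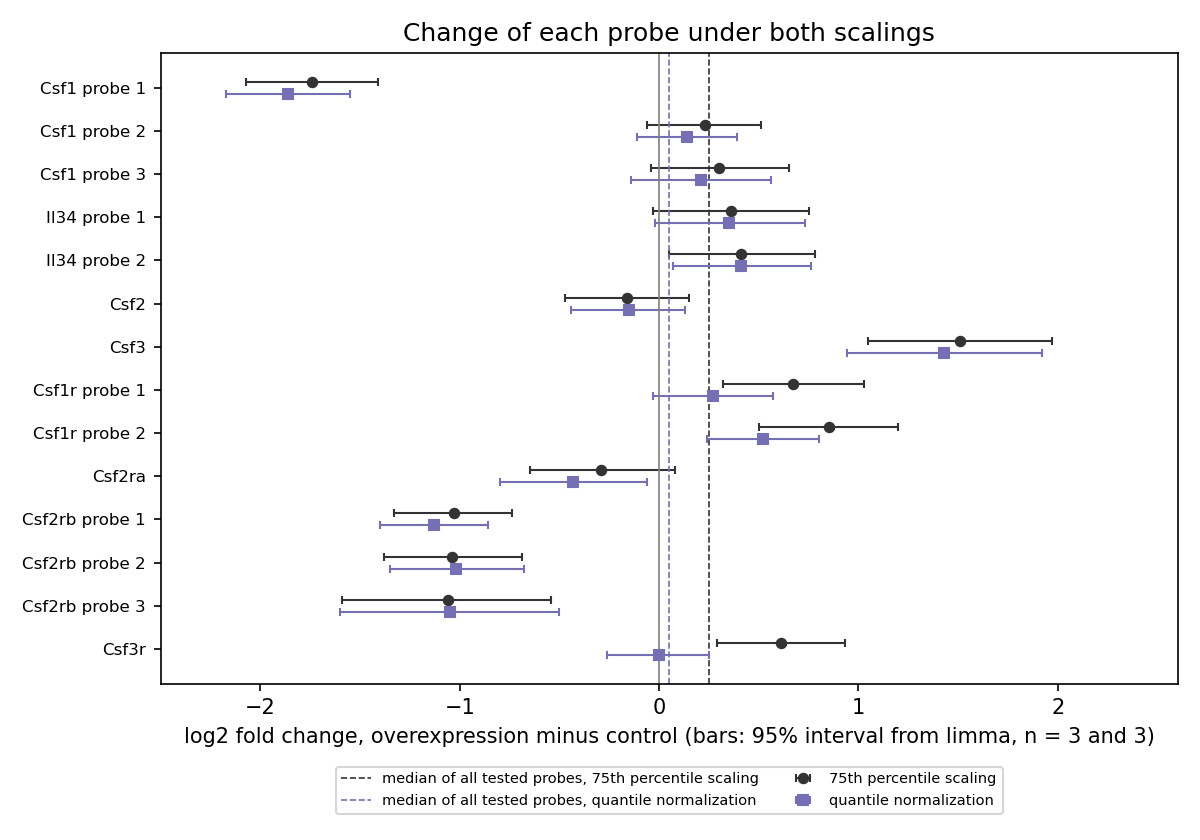
Log2 fold change (overexpression minus control) of each member probe with its 95% interval from limma, 3 arrays per group. Black circles are values after scaling to the 75th percentile, violet squares after quantile normalization, and dashed lines the medians of all tested probes, 0.25 and 0.05. Csf1 probe 1, Csf3 and the 3 Csf2rb probes pass under both scalings, whereas Csf3r goes from 0.61 to 0.00. The intervals are not adjusted for the number of probes.

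Csf1r encodes the receptor of CSF-1 and IL-34. Its probe 1 (A_55_P2025073) was bright, with intensities of 9488, 10675 and 10760 in the control and of 11021, 9578 and 10558 in the overexpression group. These unscaled values overlapped, while the scaled levels of 2.55, 2.71 and 2.51 against 3.25, 3.48 and 3.06 did not. The log2 fold change was 0.67 (interval 0.32 to 1.03; limma, adjusted p = 0.0088) with the 75th percentile and 0.27 (interval -0.03 to 0.57, adjusted p = 0.13) with quantile normalization, so the call was lost with the scaling. Relative to the median of all probes the first value was 0.43. Probe 2 (A_55_P2025078) had intensities of 6989, 6990 and 7653 against 8520, 7696 and 8428, without overlap. Its log2 fold change was 0.85 (SE 0.151, adjusted p = 0.0035), and 0.52 (interval 0.24 to 0.80, adjusted p = 0.013) after quantile normalization. Probe 2 passed in all 21 alternatives, and its difference within slides was 0.92 and 0.72. On the same arrays, probe 2 minus probe 1 was 0.18 log2 units higher in the overexpression group, without overlap (exact permutation p = 0.1).

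Csf3r encodes the G-CSF receptor. Its probe (A_55_P2070352) was bright, with intensities of 25853, 27601 and 30631 in the control and of 26235, 24164 and 30802 in the overexpression group. The unscaled values overlapped, and the log2 fold change of 0.61 (interval 0.29 to 0.93; limma, adjusted p = 0.0083) with the 75th percentile became -0.00 (interval -0.26 to 0.25, adjusted p = 0.99) with quantile normalization. A direction for Csf3r can therefore not be given apart from the scaling. The difference between Csf1r probe 1 and Csf3r within arrays was -1.45, -1.37 and -1.51 in the control and -1.25, -1.33 and -1.54 in the overexpression group, which overlap (exact permutation p = 0.5). Csf1r probe 2 minus Csf3r was 0.24 log2 units higher, without overlap (exact permutation p = 0.1).

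Csf2rb encodes the common beta chain, the subunit through which the receptors of GM-CSF, IL-3 and IL-5 signal. Its probe 1 (A_52_P52618) had intensities of 4631, 4494 and 4816 in the control and of 1621, 1124 and 1622 in the overexpression group. The groups were far apart before scaling, when the overexpression arrays had lower 75th percentiles, and also after it. The scaled level fell from 1.44 ± 0.0874 (SD, n = 3) to 0.412 ± 0.0674 (n = 3), a log2 fold change of -1.03 (interval -1.33 to -0.74; limma, adjusted p = 8.3e-04), or 2.05-fold lower. Probe 2 (A_55_P2743485) gave intensities of 1772, 1609 and 1650 against 561, 447 and 548 and a log2 fold change of -1.04 (SE 0.148). Probe 3 (A_52_P664853) gave intensities of 1812, 1267 and 1223 against 444, 408 and 427 and a log2 fold change of -1.06 (SE 0.229). The 3 probes share 1 gene and are no replicates of the condition, but their differences from each other within arrays differed by 0.00 and 0.03 log2 units between the groups, which overlapped. Within slides the log2 fold changes of the 3 probes were -1.05 to -1.13 on slide 1 and -0.94 to -1.01 on slide 2, and each passed in all 21 alternatives. Between 7.72% and 8.19% of all tested probes had a lower value.

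Csf2ra encodes the alpha chain that gives the receptor its specificity for GM-CSF. Its probe (A_51_P341465) had intensities of 3948, 4581 and 5940 in the control and of 2801, 1687 and 3164 in the overexpression group. The scaled levels of 1.29, 1.49 and 1.65 against 1.28, 0.98 and 1.32 overlapped, and the log2 fold change was -0.29 (interval -0.65 to 0.08; limma, adjusted p = 0.16). After quantile normalization the groups no longer overlapped and the value was -0.43 (interval -0.80 to -0.06, adjusted p = 0.059), short of the threshold over all probes. Adjusted over genes, each by its brightest probe, it passed there (limma, adjusted p = 0.049) but not with the 75th percentile (adjusted p = 0.14). Csf2rb probe 1 minus Csf2ra was 0.23, -0.03 and -0.30 log2 units in the control and -0.79, -0.59 and -0.96 in the overexpression group, a difference of -0.75 without overlap (exact permutation p = 0.1). The difference of beta and alpha chain was lower on every overexpression array than on any control array.

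**Figure D3:**
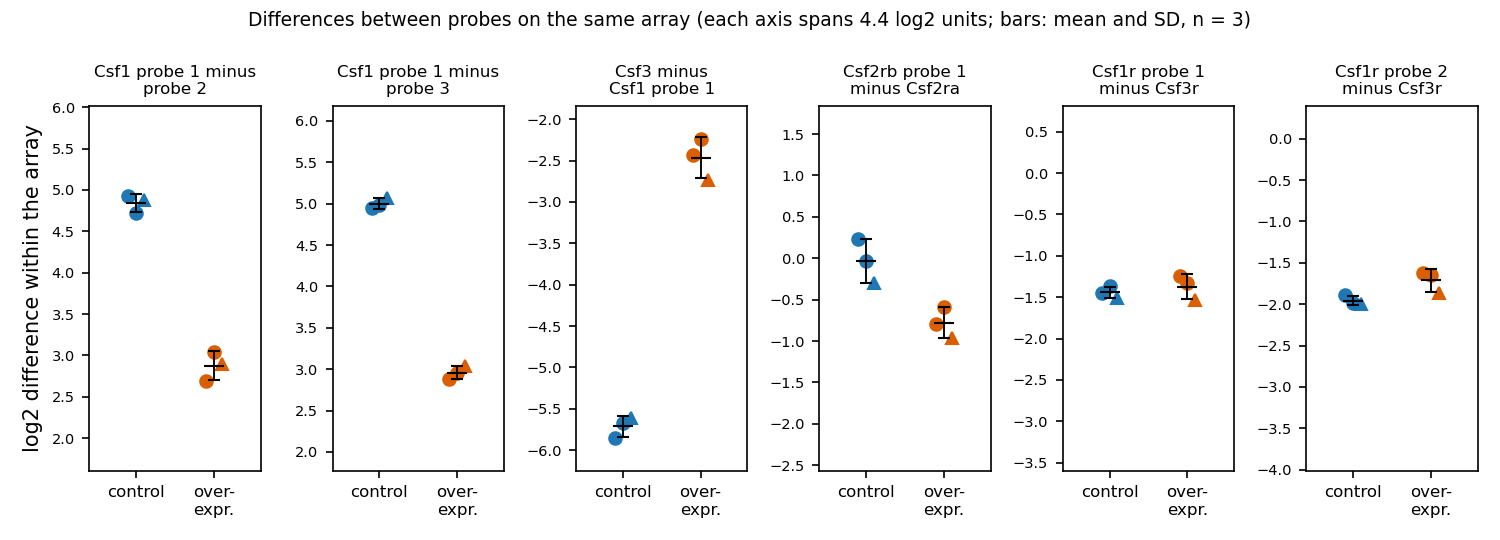
Differences in log2 signal between probes of the family on the same array, from which a constant scaling factor cancels. Each panel spans 4.4 log2 units, blue points are control and orange points overexpression samples, circles slide 1 and triangles slide 2, with the mean and SD of 3 arrays. Csf1 probe 1 moves by -1.97 and -2.04 against its own other probes and Csf3 by 3.25 against Csf1 probe 1, while Csf1r probe 1 minus Csf3r overlaps between the groups.

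Mice carry a close paralog of Csf2rb, Csf2rb2, which encodes the beta chain specific for IL-3. Its probe had a log2 fold change of -0.56 (SE 0.143; limma, adjusted p = 0.012) and of -0.60 (adjusted p = 0.011) after quantile normalization, and it passed in 20 of 21 alternatives. The sequences of the probes were not in the files, so hybridization of each transcript to the probes of the other was not tested.

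The related genes were described by 6 lists with 57 genes in all, and 52 of them were tested, each by its brightest probe. Of these 26 passed, 9 of them higher and 17 (32.7%) lower, and the median log2 fold change was -0.15. All 17062 genes tested in this way passed at a share of 56.5% (36.9% higher, 19.6% lower), and their median was 0.23. With quantile normalization 25 of the 52 passed, 5 of them higher and 20 (38.5%) lower, and the median was -0.26. The share of all genes was then 45.4% (23.1% higher, 22.3% lower) and their median 0.03. The counts of each list are to be read against these shares, and the lists were chosen with earlier results of these data known. Genes are named by a rule of size, and where a count of 5 or fewer is completed with genes outside that rule, those were chosen after their values were seen (Il5ra, Csf2rb2, Tyrobp, Syk, Pik3cd, Inpp5d, Stat5a, Cish, Runx1, Cebpe, Gfi1 and Hnrnpd). The 13 passing genes that the rule named passed in every alternative they could be tested in, whereas of the 13 outside it only Cish did. Of the latter, 3 to 8 lost their call when 1 array was left out, 8 without control replicate 1 or overexpression replicate 3 (among them Il5ra, Syk, Pik3cd, Inpp5d, Runx1, Cebpe and Hnrnpd).

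Among 6 tested relatives of the common beta chain and other receptors, 3 were higher and Csf2rb2 was lower. Il3, the ligand of the beta chain from activated T cells and mast cells, was dim, with median intensities of 67 in the control and 86 in the overexpression group, and had a log2 fold change of 1.03 (SE 0.146; limma, adjusted p = 0.0012). Ptprz1, a receptor-type phosphatase that also binds IL-34, was at median intensities of 18 and 50 and had a log2 fold change of 1.77 (adjusted p = 9.5e-04), with 2 of the 3 control arrays well above background. Il5ra was higher by 0.46 on the log2 scale. Il5 did not meet the signal filter.

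Of 19 genes of the signal from CSF1R, 12 did not pass, 3 were higher (Tyrobp, Syk and Pik3cd) and 4 were lower. The Src family kinase Fyn (log2 fold change -1.21, SE 0.15) and the Ras exchange factor Sos1 (-1.24, SE 0.233) were among the latter. Probes of Syk and Pik3cd disagreed in direction: their brightest probes each had 0.39, while the other probe of Syk had -0.82 and the others of Pik3cd ran from -0.75 to 0.08. Inpp5d, which encodes the inositol phosphatase SHIP1, had -0.46. The median of the list was -0.01, against 0.23 for all genes. Tyrobp, the adaptor DAP12, followed the bright receptors: 0.74 (adjusted p = 0.0031) with the 75th percentile and 0.12 (adjusted p = 0.35) with quantile normalization. The calls of Pik3cd and Inpp5d were also lost with quantile normalization (adjusted p = 0.30 and 0.053), while Grb2 and Ptpn6 passed there only.

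Of 6 tested JAK-STAT genes 3 were lower, among them Tyk2 (log2 fold change -0.68, adjusted p = 0.0058) and Stat5b (-0.53, adjusted p = 0.0087). Stat5a, the other gene of the STAT5 pair, had a log2 fold change of 0.84 (adjusted p = 0.014), but its call was lost after quantile normalization (0.55, adjusted p = 0.055) and its other tested probe had -0.75. No direction can therefore be given for Stat5a. Jak1 did not meet the signal filter. Of 8 target genes of STAT5 and STAT3, which colony-stimulating factors induce in macrophages, none was higher under either scaling. With the 75th percentile 4 were lower and after quantile normalization 5, against 19.6% and 22.3% of all genes. Socs3, the feedback inhibitor of gp130 and G-CSF receptor signals, fell most in the list: from a median intensity of 3083 to 562, a log2 fold change of -1.90 (SE 0.160; limma, adjusted p = 1.3e-04). The cytokine gene Osm (-1.12), the growth regulator Myc (-1.09) and Cish (-0.71), a STAT5-induced inhibitor, were the others, and Pim1 passed only after quantile normalization.

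Of 7 tested myeloid transcription factors, 5 were lower, 1 was higher and Spi1, which encodes PU.1, had 0.17 (limma, adjusted p = 0.5). Of all genes, 19.6% were lower and 36.9% higher. Cebpa had a log2 fold change of -1.64 (SE 0.221; limma, adjusted p = 9.2e-04), with median intensities of 904 and 183. Ets2 had -1.06 and Irf8, a factor required for microglia, -0.85, whereas Runx1 and Cebpe each had -0.39. The other tested probes of Runx1 had -0.40 and -2.71, so the size of its change depends on the probe. Gfi1, counted as higher (0.87), was dim, with median intensities of 58 and 65, and its other tested probe had -1.05, so its direction depends on the probe. Of 6 tested factors that bind and destabilize or stabilize cytokine mRNAs, Hnrnpd alone passed (0.36, adjusted p = 0.045) and did not after quantile normalization. Zfp36, which encodes tristetraprolin, had -0.39 (adjusted p = 0.11) and Rc3h1, which encodes roquin, -0.44 (adjusted p = 0.12), with overlapping groups.

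**Figure D4:**
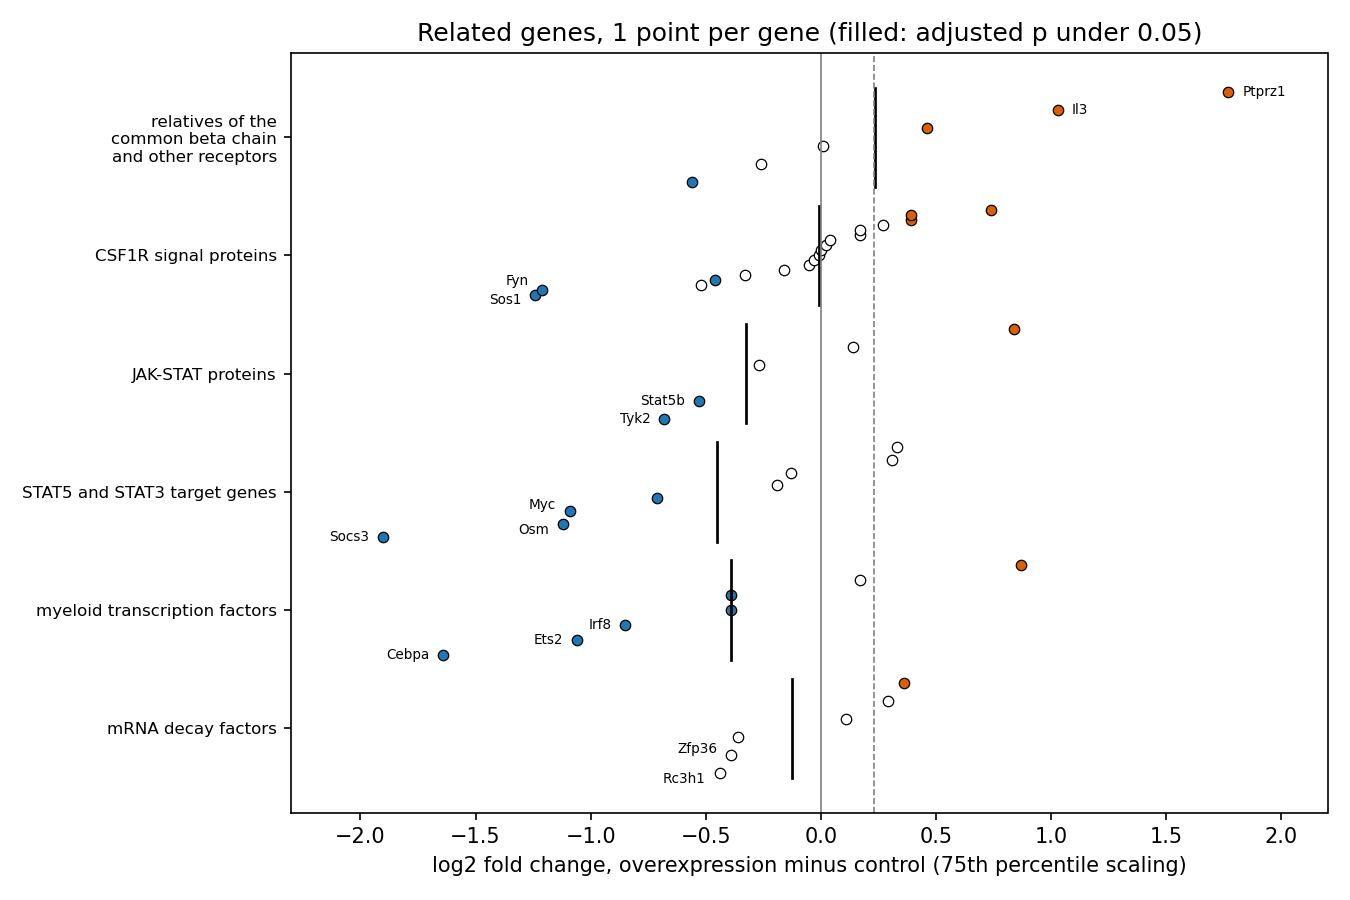
Log2 fold change (overexpression minus control, 75th percentile scaling) of the related genes reported here, by list. Filled points passed an adjusted p of 0.05 in limma (orange higher, blue lower), open points did not, short black lines are the medians of all tested genes of the lists and the dashed line the median of all genes, 0.23. Genes named by the rule of size carry their symbol. The 4 passing genes of the 8 targets of STAT5 and STAT3 lie below 0, and 19.6% of all genes passed as lower.

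The genes whose profile over the 6 arrays came closest to that of Csf1 probe 1, by the root mean square difference of the centred log2 values among 16296 genes, were Tlr2 (0.041 log2 units), Nol4l (0.048) and Commd5 (0.080). Tlr2 encodes a Toll-like receptor for bacterial lipoproteins, and its log2 fold change was -1.74. For Csf2rb probe 1 the closest were Pik3cg (0.027), Mppe1 (0.032) and Cd93 (0.037), with log2 fold changes of -1.01, -1.04 and -1.03. Pik3cg encodes the gamma isoform of phosphoinositide 3-kinase that acts downstream of chemoattractant receptors in myeloid cells. Because the genes of both sets were chosen by closeness of profile, their similar log2 fold changes follow from the choice. Shared regulation was not tested.

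The labelled cell type was checked with markers. Itgam, Cd68 and Tyrobp gave median intensities of 26914 to 51120 in the groups. The other tested markers of the list were dimmer, from Adgre1 (10629 and 6541) to Fcrls (88 and 56). The neuron marker Snap25 was as bright (42122 and 41358), so such brightness does not identify the cell type. P2ry12 and Cx3cr1, which mark microglia of the brain, did not meet the signal filter. Tmem119 was lower in the overexpression group (log2 fold change -2.68; limma, adjusted p = 4.4e-05). For the whole list, 9 of 11 genes were tested, 3 were higher and 1 was lower, and their summed signal was 79.4 to 83.0 times the 75th percentile in the control and 113 to 131 times in the overexpression group. After quantile normalization none of the 9 was higher and 2 were lower (Tmem119 and Adgre1). The sums of the list then overlapped, and so did the signal of Csf1r probe 1 and Csf3r. Among neutrophil markers, 3 of 4 tested were higher (Mpo, S100a8 and Camp), and 1 (Mpo) after quantile normalization. They were dim, with median intensities in control and overexpression group of 177 and 196 (Mpo), 74 and 77 (S100a8) and 112 and 93 (Camp). Relative to the median of all genes their log2 fold changes were 0.71, 0.31 and 0.28. Of all genes, 36.9% were higher under the first scaling and 23.1% under the second. Ly6g and S100a9 did not meet the filter, and the summed signal was 0.207 to 0.245 times the 75th percentile in the control and 0.328 to 0.409 times in the overexpression group. Of 4 fibroblast markers, which mark a known source of Csf1 and Csf3, 3 were higher, and 2 after quantile normalization. The sums of the 4 were 15.4 to 16.5 times in the control and 26.5 to 32.0 times in the overexpression group. Col1a1 gave the largest part of these sums (median intensities of 19269 and 21683). Its call was lost after quantile normalization (log2 fold change 0.22; limma, adjusted p = 0.12). Pdgfra was lower by its brightest probe (-1.63), while its other probes had -0.54 and 1.13. The neutrophil and the fibroblast sums did not overlap after quantile normalization either. Lists of other cells moved too: 2 of 3 tested astrocyte markers (sums of 0.241 to 0.278 and 0.408 to 0.52 times), 2 of 2 neuron markers (22.0 to 27.8 and 35.2 to 48.4 times) and 1 of 1 marker of T and B cells were higher, and none of 3 oligodendrocyte markers passed. After quantile normalization the neuron sums overlapped, while the sums of astrocytes, of oligodendrocytes and of T and B cells did not. Of the neuron markers only Rbfox3 then passed (limma, adjusted p = 0.037), and the marker of T and B cells, Cd3e, did not (adjusted p = 0.065). Rbfox3 had median intensities of 16 in the control and 22 in the overexpression group, so the neuron sums are nearly those of Snap25. The part of other cells in the values of Csf1, Csf3 and Csf3r was not tested.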

How the data were processed

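Spot intensities of 6 one-colour Agilent arrays, deposited by the authors, had been measured with Agilent Feature Extraction 11.5.1.1, per the file headers, which subtracts background within the array. No normalization between arrays had been applied. The labels name the dye Cy3 and the labelling protocol Cy5; the files hold 1 channel. The authors also deposited log2 values of 42110 probes normalized in GeneSpring by a procedure that is not given in the sources used here; they were used as an alternative, and the table's columns correlate with their arrays with r of 0.9988 or higher across probes. Neither file holds comparisons by the authors.

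Log2 was taken of each intensity and the 75th percentile over 59305 spots other than controls subtracted. Spots that the scanner software marked as outliers, 149 to 1590 on an array, did not enter, and spots of 1 probe were averaged. Of 56605 probes, 33767 were matched by RefSeq accession to genes of GRCm38; probe coordinates are left out, since the design of the array cites an earlier build. Probes entered the test with values on 2 or more arrays per group, provided that 1 group or both had all 3 arrays well above background. Every probe of a member was kept, and for related genes the brightest tested probe stood for the gene. The test was limma's (version 3.58.1, lmFit followed by eBayes, run under R 4.3.3). It was two-sided, and p-values were adjusted by Benjamini-Hochberg across 38919 probes, or across 17062 genes for the lists, with a threshold of 0.05. The script was tested on simulated data. Precision is limited by the number of arrays.

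The members and lists were chosen with earlier results of these data known. Related genes were named if they passed with an absolute log2 fold change, relative to the median of all genes, of at least 1, or were among the 2 largest of a list with fewer such genes. Values of a few genes that are counted in the lists are not reported here. The 3 genes with the most similar profile were named for the ligand and the receptor with the largest change. Same-numbered samples of both groups deviated from their group means with correlations of -0.206, 0.00315 and 0.592 across probes, so the numbers were not taken to pair the samples. Alternatives were other scalings, background corrections, signal filters, variance models, fits with a block for slide or for replicate number, and leaving out each array.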

Additional observations from a re-analysis of the deposited data

How the results depend on the processing

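Over 21 alternative settings and 14 member probes, 275 of 294 values kept their direction and their side of the threshold, 5 lost the call, 13 gained it and 1 reversed. The reversed value was that of Csf3r, -0.04 (adjusted p = 0.86) with normexp background correction and quantile normalization. The lost calls were those of Csf1r probe 1 (0.27, 0.23 and 0.26) and Csf3r (-0.00 and 0.01), under quantile normalization, under normexp with quantile normalization for Csf1r, and in the authors' log2 values. Of the gained calls, 8 were those of Il34 probe 2, 1 was that of Csf2ra with normexp and quantile normalization (-0.46, adjusted p = 0.025), and the other 4 came with array weights. The number of member probes past the threshold was 8, and 13 with array weights, whose estimation stopped before it had converged. It was 8 to 9 when each array was left out in turn, and the count of genes by their brightest probe was then 5 each time. For the related genes it was 26, 18 without a signal filter, and 19 to 26 without each array. With the replicate number as a block, 9 member probes passed, since Il34 probe 2 reached an adjusted p of 0.047. The replicate block changed no other call among the members. The pairing had no support in the correlations of same-numbered samples, and not every sample correlated best with its own number. The brightest and the mean probe per gene gave no count of probes, the restriction to matched probes no new count of genes, and the levels of the groups were not recomputed because each scaling sets its own zero. Other causes of these differences were not tested. Csf3, with intensities of 106 to 222, is the member with the signal closest to background that passed.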
